A study of Homo sapiens with 7 samples.

Results

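The dystrophin glycoprotein complex was followed here through 8 genes, DMD, UTRN, DAG1, SGCA, SGCB, SGCD, SNTB1 and DTNA, which were taken by their symbols from 60234 genes of a deposited expression table. All 8 were found and all 8 passed the filter on low values. The cells were cardiomyocytes derived from WTC-11, an established line of human induced pluripotent stem cells, by a small-molecule protocol. They were kept for 35 days to mature and then exposed passively, as the labels put it, for 96 h to 2 uM of an antisense oligonucleotide (ASO), a designed strand that base-pairs with a target transcript. The control group of 3 libraries received a scrambled ASO and the other group of 4 libraries an ASO directed at MYH7B, whose transcript the study's title describes as a regulatory long noncoding RNA of the heart. All 7 libraries come from 1 cell line and carry no other difference in the labels, which do not say whether the libraries of a group came from separate cultures or differentiations. The p-values below therefore measure only the spread between these libraries, which may be technical.

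The complex is a membrane-spanning assembly of striated muscle. Dystrophin, or its relative utrophin, binds cytoplasmic actin filaments at one end and the transmembrane subunit of dystroglycan at the other, while the glycosylated extracellular subunit of dystroglycan holds laminin in the basement membrane. The sarcoglycans form a small transmembrane subcomplex beside dystroglycan, and the syntrophins and dystrobrevins attach to dystrophin on the inner face, where they bring in signalling proteins and channels. Loss of dystrophin causes Duchenne muscular dystrophy, in which the heart is also affected, and loss of sarcoglycans causes limb-girdle muscular dystrophies.

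Poly-A RNA had been sequenced, and the values are TPM (a relative transcript abundance), corrected for transcript length and scaled to the same sum of 1000000 in every library. The sequencing depth is therefore unknown, and the error given is the spread between libraries. One library, MYH7B ASO replicate 1, was deposited out of row register. Its 58721 filled positions equal the number of genes on the reference chromosomes in GENCODE 29, and sorting those gene identifiers put it back in register, with a median correlation to the other libraries of 0.955 against 0.408 as deposited. Tests were made with limma on log2(TPM + 1) over every gene with a mean of at least 1 TPM, and a gene is called here when its Benjamini-Hochberg adjusted p was under 0.05. The 6 libraries without replicate 1 gave the main test. Reordered values of replicate 1 are given for each member and for part of the other genes, and means with an SD leave it out. MYH7B itself stood at 23.0, 36.5 and 25.1 TPM in the scrambled libraries and at 9.30, 5.65 and 6.31 TPM in MYH7B ASO replicates 2 to 4, with 1.29 TPM in replicate 1. It was called lower over 6 libraries (log2 fold change -1.85, limma adjusted p = 0.0109) and its adjusted p was 0.0525 over 7 and 0.0618 without MYH7B ASO replicate 4. Over 6 libraries 265 of 15988 genes (1.66%) were called, 29 higher and 236 lower, while rescaling the libraries by median ratios gave 58 higher and 213 lower. The share of TPM from mitochondrially encoded genes was 27.4 to 33.6% in the 6 libraries and 17.2% in replicate 1.

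The cell type was checked by marker genes. The 10 cardiomyocyte markers, troponins and cardiac myosins among them, summed to 9751 to 10877 TPM in the scrambled libraries. In MYH7B ASO replicates 2 to 4 they summed to 8280 to 10540 TPM (7926 TPM in replicate 1), with MYL7 the largest term. None was called, but 7 values were lower and 3 higher, with log2 fold changes from -1.27 for MYH7 to 0.42 for TNNI1. An unadjusted limma p under 0.05 was met by 5 of the 10, all lower, beside 10.6% of all tested genes in that direction. The cultures also held RNA of other mesenchymal kinds. The 10 fibroblast markers summed to 2922 to 5267 TPM in the scrambled libraries and to 1373 to 2109 TPM in replicates 2 to 4 and to 4169 TPM in replicate 1, with COL1A1, COL1A2 and COL3A1 the largest terms. COL1A2 and LUM were called lower over 6 libraries and not over 7 (limma adjusted p = 0.207 and 0.391). The fibroblast markers TCF21 and PDGFRA had higher values (log2 fold change 0.71 and 0.60, limma adjusted p = 0.168 and 0.152). At an adjusted p under 0.05, the table deposited by the authors has 2 of these 10 markers higher and 5 lower. The higher ones are TCF21 and PDGFRA, with adjusted p-values of 0.0027 and 0.00287. The lower ones are COL1A1 (6.2e-06), COL1A2 (2.4e-09), COL3A1 (0.000497), LUM (1.7e-07) and DDR2 (0.006). The 6 smooth muscle markers summed to 962 to 1361 TPM against 576 to 752 TPM (1110 TPM in replicate 1), with MYH11 called lower. Of their values 4 were lower and 2 higher, those of CNN1 and SMTN (log2 fold change 0.24 and 0.07), neither of them called. In the shorter lists, ACTA1 of skeletal muscle (also made by heart muscle) and STMN2 of neurons were called lower (limma adjusted p = 0.0621 and 0.0314 over 7 libraries), and no epithelial, endothelial or pluripotency marker was called. The endothelial genes PECAM1, CDH5, VWF and CLDN5, the pluripotency genes NANOG, SOX2 and LIN28A and the skeletal muscle regulators MYOD1, MYOG, MYF5 and PAX7 were under the filter. In bulk RNA, fewer cells of a type and less RNA per cell cannot be told apart. The part of the fibroblast and smooth muscle difference in the results below was not tested.

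No member was called over the 6 libraries, nor over 7, where 1.07% of 15822 genes were, nor under any of the 19 alternative settings tried. Among these settings the replicate blocks called 0 genes of the whole table, so they could not call a member. The fits with 1 library left out called only 53 to 149 genes. At an unadjusted p under 0.05, which 15.2% of all tested genes met (10.6% lower and 4.67% higher), 5 of the 8 members passed in the limma test. DMD, UTRN, SNTB1 and DTNA had lower values with the MYH7B ASO and SGCA a higher one. With 1 library left out 2 to 4 members passed at that level, beside 11.3 to 16.3% of all tested genes. The lowest count, 2, came without MYH7B ASO replicate 2, where 11.3% of all tested genes passed. With replicate 1 included only DMD passed at that level, against 13.5% of all tested genes. The authors' deposited table of their own comparison, which does not name the libraries in it, gave an adjusted p under 0.05 to 3 members, DMD and SNTB1 lower and SGCA higher, and to 8.71% of its 15527 genes with such a value (5.69% lower and 3.02% higher). The median log2 fold change of the 8 members was -0.56, beside -0.04 over all tested genes, and over 7 libraries it was -0.49 beside -0.05.

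**Figure D1:**
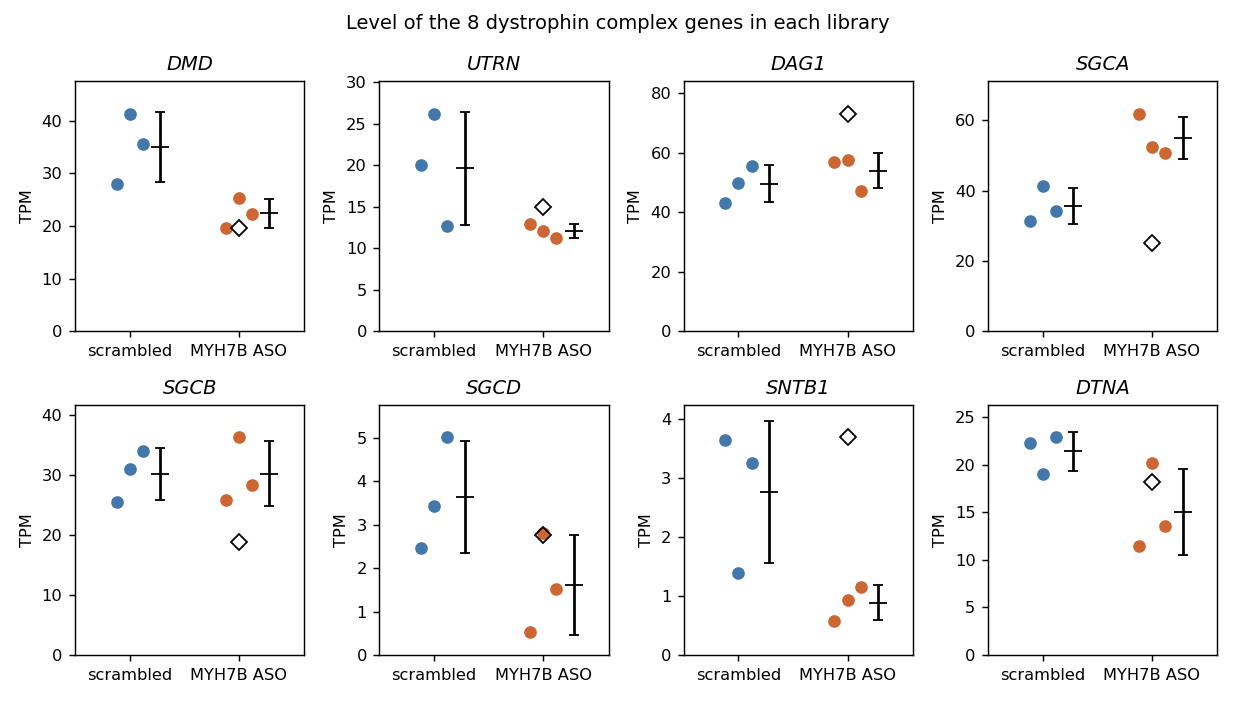
TPM of each of the 8 genes (vertical axes, from 0) in the scrambled ASO libraries (blue) and in MYH7B ASO replicates 2 to 4 (orange), with black bars for the mean ± SD of 3 libraries and an open diamond for MYH7B ASO replicate 1. The 3 orange points lie below all blue points for DMD and SNTB1 and above them for SGCA, where the diamond is the lowest value of the panel.

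Where transcription of the long members begins is shown first, because each TPM value sums all transcripts of a gene and 3 of the members have several listed starts far apart. RefSeq promoter windows on GRCh38.p14, read here for the 250 bases upstream of each start, were found for 6 of the 8 members, 20 windows in all, with none for SGCA and SNTB1. DMD has 7 listed starts over 1831 kb, UTRN 2 over 298 kb and DTNA 7 over 325 kb. The windows printed are the start of the muscle isoform of DMD at chrX:33211555-33211799 on the minus strand, which lies inside the DMD gene and outside its annotated exons, the upstream start of UTRN at chr6:144285085-144285334 on the plus strand, before the gene, and the second start of DTNA at chr18:34593085-34593317 on the plus strand, inside the gene and outside its exons. Capitals mark a CArG box, the binding motif of serum response factor, in DMD and a TEAD core motif, GGAATG, in DTNA, and no capital stands in UTRN.
DMD muscle start: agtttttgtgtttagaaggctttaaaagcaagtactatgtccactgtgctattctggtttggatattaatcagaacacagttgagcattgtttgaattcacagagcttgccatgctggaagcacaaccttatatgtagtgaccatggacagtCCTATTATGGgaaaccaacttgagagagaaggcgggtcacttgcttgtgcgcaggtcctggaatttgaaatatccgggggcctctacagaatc
UTRN upstream start: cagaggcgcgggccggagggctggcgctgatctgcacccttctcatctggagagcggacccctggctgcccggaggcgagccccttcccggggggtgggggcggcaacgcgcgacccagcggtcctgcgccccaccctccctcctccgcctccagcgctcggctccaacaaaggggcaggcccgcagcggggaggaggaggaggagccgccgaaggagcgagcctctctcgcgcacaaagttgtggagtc
DTNA second start: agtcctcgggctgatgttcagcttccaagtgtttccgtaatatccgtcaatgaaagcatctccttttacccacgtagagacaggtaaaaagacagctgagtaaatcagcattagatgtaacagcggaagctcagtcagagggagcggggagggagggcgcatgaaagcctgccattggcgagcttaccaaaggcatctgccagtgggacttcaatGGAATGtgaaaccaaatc

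The DMD window is 43.3% G and C, the DTNA window 49.4% and the UTRN window 73.2%. The TEAD motif was searched because 2 genes of the TEAD family of transcription factors, chosen after their values were seen, were called lower, TEAD3 (log2 fold change -1.80, limma adjusted p = 0.0021) and TEAD1 (-0.76, adjusted p = 0.0316). Over 7 libraries their adjusted p-values were 0.00495 and 0.0657, so TEAD1 was called over 6 libraries only. On either strand, GGAATG occurred in 2 of the 20 member windows, 137 bases upstream of the SGCD start and 35 bases upstream of the DTNA start shown. Among all 35116 windows of 250 bases 11.9% held it. The CArG box, 98 bases upstream of the muscle start of DMD, was in 1 of 20 member windows and in 1.16% of all windows. The E-box CANNTG, a motif of basic helix-loop-helix factors, was in 13 of 20 member windows and in 61.8% of all. Some member windows overlap one another, and a match describes letters only.

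DMD encodes dystrophin, the actin-binding rod at the core of the complex, and is the longest member (ENSG00000198947.15, chrX:31097677-33339441 in GENCODE 29 on GRCh38, minus strand). Its level was 27.99, 41.3 and 35.6 TPM in the scrambled libraries and 19.6, 25.2 and 22.3 TPM in MYH7B ASO replicates 2 to 4, with 19.7 TPM in replicate 1. Every MYH7B ASO library was thus below every scrambled library, including replicate 1. Groups that do not overlap in this direction were seen for 14.1% of all tested genes over 6 libraries and for 10.2% over 7. The means were 35.0 ± 6.68 and 22.4 ± 2.80 TPM (SD, n = 3 each), a ratio of 0.640. The log2 fold change was -0.61 with a 95% confidence interval from -1.03 to -0.19 (limma unadjusted p = 0.00993, adjusted p = 0.166). Over 7 libraries it was -0.65 (adjusted p = 0.169), and the authors' deposited table gives -0.50 with an adjusted p of 0.0375. The reads of the full-length and the shorter dystrophin transcripts cannot be told apart in these gene-level values.

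UTRN encodes utrophin, the autosomal relative of dystrophin that can occupy the same place in the complex (ENSG00000152818.18, chr6:144285701-144853034, plus strand). It stood at 20.02, 26.2 and 12.6 TPM in the scrambled libraries and at 12.9, 12.04 and 11.2 TPM in replicates 2 to 4, with 14.9 TPM in replicate 1. The scrambled libraries were widely spread, and the lowest of them lay within the range of the MYH7B ASO libraries. The log2 fold change was -0.61, with an interval from -1.17 to -0.04 (limma unadjusted p = 0.0391, adjusted p = 0.295), and -0.53 over 7 libraries. The authors' deposited table gives -0.52 with an adjusted p of 0.0856.

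Because utrophin can stand in for dystrophin, the ratio of UTRN to DMD was compared within libraries, where it does not depend on scaling. UTRN stood at 0.561 times the DMD level in the scrambled means and at 0.538 times in the means of MYH7B ASO replicates 2 to 4. The log2 ratio was -0.88 ± 0.54 in the scrambled libraries and -0.89 ± 0.24 in the MYH7B ASO libraries (SD, n = 3 each), a difference of -0.01. The 2-sided exact permutation test gave p = 1 where the smallest p possible is 0.1. Over 7 libraries the difference was 0.11, with an exact permutation p of 0.771 where the smallest possible is 0.0286. A difference in the ratio was not detectable against this spread.

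DAG1 encodes dystroglycan, which is cut into the laminin-binding and the membrane-spanning subunit (ENSG00000173402.12, chr3:49468703-49535618, plus strand). It was the most abundant member, with 43.1, 49.9 and 55.6 TPM in the scrambled libraries. The MYH7B ASO libraries had 57.0, 57.7 and 47.2 TPM in replicates 2 to 4 and 73.1 TPM in replicate 1. The groups overlapped, and the log2 fold change of 0.12 had an interval from -0.23 to 0.48 (limma adjusted p = 0.753). A difference in this membrane anchor was not detectable against the spread of these libraries, and with replicate 1 the value was 0.23.

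The sarcoglycans did not share a direction in their values. SGCA encodes alpha-sarcoglycan, the subunit restricted to striated muscle (ENSG00000108823.16, chr17:50164214-50175931, plus strand). It measured 31.3, 41.3 and 34.3 TPM in the scrambled libraries and 61.9, 52.4 and 50.8 TPM in MYH7B ASO replicates 2 to 4. Those 3 libraries were above every scrambled library, as for 7.11% of all tested genes in this direction, but replicate 1, at 24.95 TPM, was below every scrambled library. The log2 fold change was 0.62 with an interval from 0.25 to 0.98 over 6 libraries (limma unadjusted p = 0.00425, adjusted p = 0.114). It was 0.34 with an interval from -0.32 to 0.996 over 7 libraries (adjusted p = 0.633), so the size of the SGCA difference rests on whether replicate 1 is counted. The authors' deposited table gives 0.61 with an adjusted p of 0.00408.

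SGCB encodes beta-sarcoglycan, needed for the subcomplex to reach the membrane (ENSG00000163069.12, chr4:52020706-52038482, minus strand). It had 25.5, 31.1 and 34.1 TPM in the scrambled libraries and 25.9, 36.3 and 28.4 TPM in MYH7B ASO replicates 2 to 4, with 18.8 TPM in replicate 1. The groups overlapped, and the 6-library means were equal to 3 digits at 30.2 TPM each. The interval of the log2 fold change ran from -0.42 to 0.41 (limma adjusted p = 0.995). SGCD encodes delta-sarcoglycan, the partner of beta-sarcoglycan in the core of the subcomplex and a dilated cardiomyopathy gene (ENSG00000170624.13, chr5:155870344-156767788, plus strand). It was low, at 2.46, 3.42 and 5.01 TPM in the scrambled libraries and 0.520, 2.80 and 1.51 TPM in replicates 2 to 4, with 2.77 TPM in replicate 1. The MYH7B ASO values were spread over more than the distance between the means, and the groups overlapped. The log2 fold change was -0.89 with an interval from -1.79 to 0.01 (limma adjusted p = 0.333), and as a low gene it moved with the pseudocount, to -1.33 at a pseudocount of 0.1 and to -0.39 at 5.

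On the cytoplasmic side, SNTB1 encodes beta-1-syntrophin, an adaptor with a PDZ domain (ENSG00000172164.15, chr8:120535745-120813273, minus strand). Its level was 3.64, 1.39 and 3.25 TPM in the scrambled libraries and 0.573, 0.933 and 1.16 TPM in MYH7B ASO replicates 2 to 4. Replicate 1, at 3.69 TPM, was above all of them. The log2 fold change was -0.95 with an interval from -1.79 to -0.11 over 6 libraries (limma unadjusted p = 0.0312, adjusted p = 0.271). Over 7 libraries it was -0.62, with an adjusted p of 0.56, and pseudocounts of 0.1 and 5 gave -1.47 and -0.39. The authors' deposited table gives -0.83 with an adjusted p of 0.0146.

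DTNA encodes alpha-dystrobrevin, which binds dystrophin and the syntrophins (ENSG00000134769.21, chr18:34493290-34891844, plus strand). It measured 22.3, 19.1 and 22.9 TPM in the scrambled libraries and 11.5, 20.2 and 13.5 TPM in MYH7B ASO replicates 2 to 4, with 18.2 TPM in replicate 1. Replicate 3 lay inside the scrambled range and the other MYH7B ASO libraries below it. The log2 fold change was -0.51 with an interval from -1.01 to -0.02 (limma unadjusted p = 0.0431, adjusted p = 0.308), and -0.44 over 7 libraries. Its relative DTNB, beta-dystrobrevin, was less abundant, by 3.45 times in the scrambled means.

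In the scrambled libraries the order of the members by mean TPM, a scale corrected for length, was DAG1 (49.6), SGCA (35.7), DMD (35.0), SGCB (30.2), DTNA (21.4), UTRN (19.6), SGCD (3.63) and SNTB1 (2.76). The ranges over 3 libraries overlapped for SGCA and DMD, for DMD and SGCB, for DTNA and UTRN and for SGCD and SNTB1, and they did not for the other neighbours in the order. The members fall into a group between 19.6 and 49.6 TPM and a pair under 4 TPM.

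Among the 11 further genes of the complex, 6 passed the filter and none was called, with 5 of 6 values lower and a median log2 fold change of -0.45. SSPN, which encodes sarcospan, a tetraspan protein bound to the sarcoglycans, was at 53.2, 66.0 and 57.3 TPM in the scrambled libraries and at 25.9, 40.4 and 37.4 TPM in MYH7B ASO replicates 2 to 4, with 35.1 TPM in replicate 1. SSPN was lower in every MYH7B ASO library than in every scrambled library, as were 10.2% of all tested genes over 7 libraries. Its log2 fold change of -0.77 had the lowest adjusted p of the complex (limma adjusted p = 0.103, and 0.12 over 7 libraries), and the authors' deposited table gives -0.58 with an adjusted p of 0.0223. SGCE, epsilon-sarcoglycan, which can take the place of alpha-sarcoglycan outside muscle, had 23.9 ± 3.12 against 23.2 ± 3.46 TPM, and DTNB 6.22 ± 1.25 against 3.87 ± 1.40 TPM. CAV3, SGCZ, SNTG1, SNTG2 and DRP2 were under the filter and not tested. CAV3 was at 1.01, 1.40 and 2.47 TPM in the scrambled libraries. It was at 0.087, 0.401 and 0.075 TPM in replicates 2 to 4 and at 0.313 TPM in replicate 1, values near the floor. DRP2 went the other way, with means of 0.471 and 0.777 TPM over the 6 libraries.

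**Figure D2:**
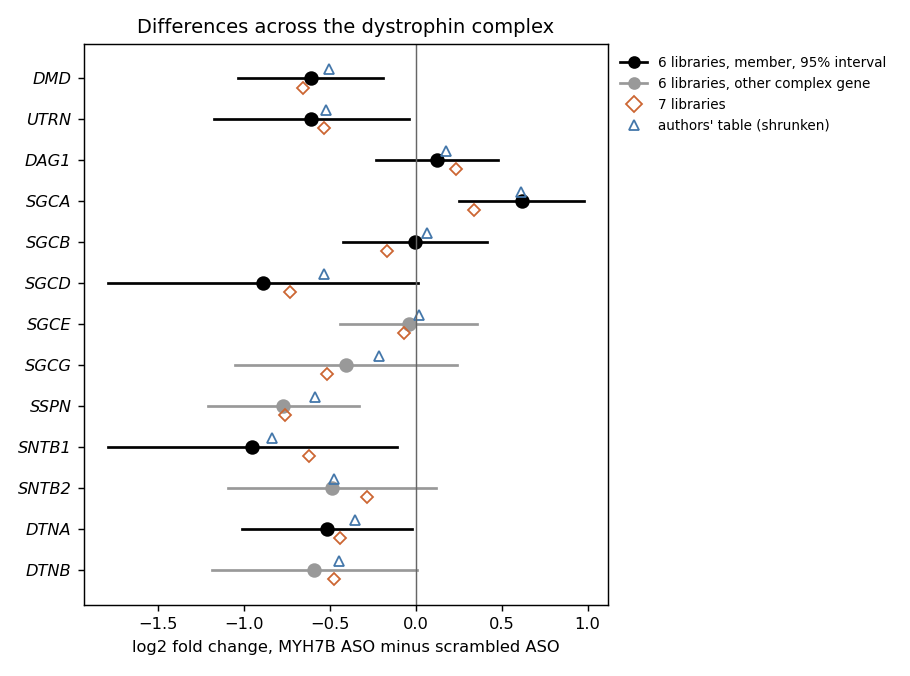
Log2 fold change, MYH7B ASO minus scrambled ASO (horizontal axis), of the 8 members (black) and 5 further tested genes of the complex (grey) from 6 libraries with 95% confidence intervals, with the 7-library value (diamond) and the value in the authors' deposited table (triangle), which the name of that table calls shrunken. Values for DMD, UTRN, SGCD, SNTB1, SSPN and DTNA lie left of 0 from all 3 sources, SGCA lies right of it, and DAG1, SGCB and SGCE lie close to 0.

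The values were next set against the genomic span of each gene, the distance from its first to its last annotated base in GENCODE 29. This comparison was chosen after the values were seen. The 5 members of 100 kb and over, SNTB1 (277.5 kb), DTNA (398.6 kb), UTRN (567.3 kb), SGCD (897.4 kb) and DMD (2241.8 kb), all had lower values with the MYH7B ASO, with log2 fold changes from -0.95 to -0.51. The 3 shorter members, SGCA (11.7 kb), SGCB (17.8 kb) and DAG1 (66.9 kb), had values from -0.00 to 0.62. A lower value was found for 78.2% of all tested protein-coding genes of 100 kb and over. Across the 8 genes the Spearman correlation of span and log2 fold change was -0.71 over 6 libraries and -0.88 over 7, a description of genes that share the same libraries.

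The medians of all 12952 tested protein-coding genes followed the same order by span. The median log2 fold change was 0.13 for genes under 10 kb, 0.04 from 10 to 30 kb, -0.09 from 30 to 100 kb, -0.23 from 100 to 200 kb, -0.40 from 200 to 500 kb and -0.70 over 500 kb. Of the 193 genes over 500 kb, 91.7% had a lower value and 29 were called, all of them lower. In the authors' deposited table the median of that class was -0.51 with 88.3% lower. Of the 5 long members, DMD, UTRN and SGCD lay within the quartiles of the class over 500 kb, DTNA lay within those of the class from 200 to 500 kb and SNTB1 below them. Of the 3 shorter members, SGCB lay within the quartiles of its class, and SGCA and DAG1 lay above those of theirs.

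**Figure D3:**
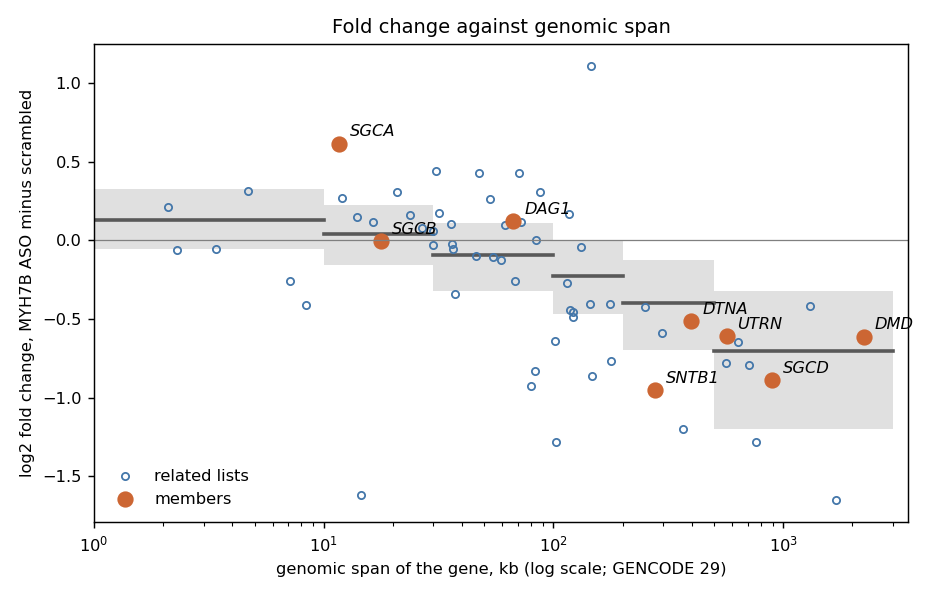
Log2 fold change over 6 libraries (vertical axis) against genomic span in kb (horizontal axis, log scale) for the 8 members (orange, named) and the tested genes of the related lists (blue circles, without 1 gene under 1 kb). Grey lines and bands are the median and quartiles of all tested protein-coding genes in 6 span classes, whose medians go from 0.13 under 10 kb to -0.70 over 500 kb.

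The difference was present in each MYH7B ASO library. For the class over 500 kb, the median of log2(TPM + 1) minus the scrambled mean was -0.79, -0.62 and -0.73 in MYH7B ASO replicates 2 to 4 and -0.78 in replicate 1, against -0.03 to 0.05 in the scrambled libraries. Replicate 1, which stands apart in SGCA and SNTB1, is thus among the others here. Exact permutation tests of this median over 3 and 4 libraries gave 0.0286, the smallest p possible, for the 3 classes of 100 kb and over. After adjustment over the 6 classes this was 0.0571. The scrambled libraries were measured against their own mean, which centres them near 0, and this base was kept in every permutation. The pattern by span had also been seen in these same libraries before. For both reasons these p-values are a description and decide nothing. They include replicate 1, without which no p under 0.1 is possible. The 3 classes under 100 kb gave adjusted p-values of 0.206, 0.486 and 0.206 in order of span. Among tested protein-coding genes under 100 kb, 48.4% had a lower value. Of the related genes listed below, 20 of 22 of 100 kb and over were lower (median -0.54) and 15 of 35 shorter ones (median 0.08), which was not tested against those shares.

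**Figure D4:**
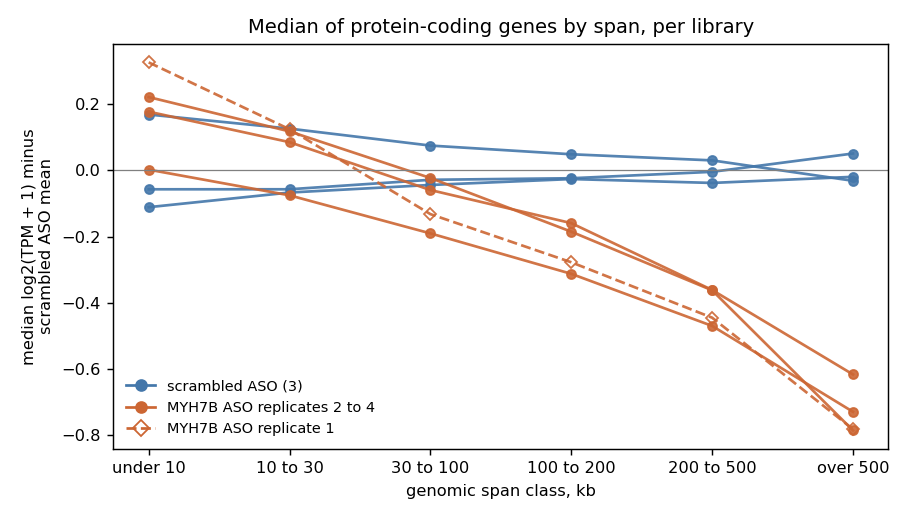
Median of log2(TPM + 1) minus the mean of the scrambled libraries (vertical axis) over the tested protein-coding genes of each span class (horizontal axis, kb), with 1 line per library. The 4 MYH7B ASO lines (orange, dashed for replicate 1) reach -0.79 to -0.62 over 500 kb. The 3 scrambled lines (blue), which are centred near 0 because the base is their own mean, lie between -0.03 and 0.05 there.

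Dystroglycan holds its ligands through a sugar chain built by a series of enzymes. Of 18 genes of this pathway 16 were tested and none was called, with 8 values higher and 8 lower and a median of 0.02. The most abundant were DPM3, B4GAT1, DPM1 and DPM2. The DPM genes encode subunits of the enzyme that makes the mannose donor, and DPM3 had 54.9 ± 21.9 TPM in the scrambled libraries against 84.1 ± 20.2 TPM in MYH7B ASO replicates 2 to 4 (SD, n = 3 each; log2 fold change 0.65, limma adjusted p = 0.331). B4GAT1, a glucuronyltransferase of the pathway, was at 36.1 ± 5.68 against 34.6 ± 6.35 TPM.

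The extracellular partners were laminin chains and other proteins that bind dystroglycan or its neighbours. Of 15 such genes 14 were tested, SLIT2 and BGN were called lower and none was called higher, beside 1.66% of all tested genes called. Their median was -0.41. At an adjusted p under 0.05, the authors' deposited table has 6 of the 15 lower and 1 higher, beside 5.69% and 3.02% of its genes. SLIT2 encodes a secreted guidance protein that binds dystroglycan, and its level was 17.3, 20.7 and 25.3 TPM in the scrambled libraries against 7.27, 11.1 and 7.59 TPM in replicates 2 to 4 (13.7 TPM in replicate 1). It fell by 1.20 on the log2 scale (limma adjusted p = 0.0354), and its adjusted p was 0.101 over 7 libraries and 0.0456 to 0.159 with 1 library left out, under 0.05 only without MYH7B ASO replicate 3. BGN, biglycan, is a small proteoglycan that binds dystroglycan and sarcoglycans. It had 25.4, 26.4 and 54.6 TPM in the scrambled libraries against 9.63, 12.1 and 8.93 TPM (14.3 TPM in replicate 1), and fell by 1.62 (limma adjusted p = 0.0351, and 0.0478 over 7 libraries). With 1 library left out the adjusted p of BGN was 0.0391 to 0.159, under 0.05 only without scrambled ASO replicate 3. BGN is made mainly by mesenchymal cells. The sum of fibroblast markers was also low in replicates 2 to 4. In replicate 1, a single library, BGN was below every scrambled library and that sum, 4169 TPM, lay inside the scrambled range. The part of cell composition in the BGN difference was not tested.

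Laminin chains gave mixed values. The abundant chains LAMB2 (353 ± 75.6 against 425 ± 87.2 TPM) and LAMA5 (182 ± 63.5 against 162 ± 29.3 TPM) and the proteoglycan HSPG2, perlecan (130 ± 27.4 against 107 ± 22.2 TPM; SD, n = 3 each), had overlapping groups. LAMC1, the gamma chain of most laminins, had 106 ± 11.8 against 76.7 ± 6.14 TPM (log2 fold change -0.45, limma adjusted p = 0.173). Replicate 1, at 155 TPM, was above every scrambled library, and over 7 libraries the log2 fold change of LAMC1 was -0.20 (adjusted p = 0.767). The alpha chains LAMA2 and LAMA4, named after their values were seen, stood on opposite sides. LAMA2, the alpha chain of the main muscle laminin and a congenital muscular dystrophy gene, was at 30.04, 28.3 and 28.9 TPM in the scrambled libraries and at 20.8, 17.5 and 16.7 TPM in replicates 2 to 4, with 8.56 TPM in replicate 1 (log2 fold change -0.64, limma adjusted p = 0.0847). LAMA4 was at 16.0, 18.8 and 11.6 TPM and at 46.7, 26.4 and 31.8 TPM, with 20.3 TPM in replicate 1 (log2 fold change 1.11, adjusted p = 0.0768). Neither pair of groups overlapped over 7 libraries, as for 10.2% of all tested genes in the lower and 4.7% in the higher direction. The authors' deposited table gives LAMA2 -0.56 with an adjusted p of 0.00114 and LAMA4 0.97 with one of 8.8e-05.

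**Figure D5:**
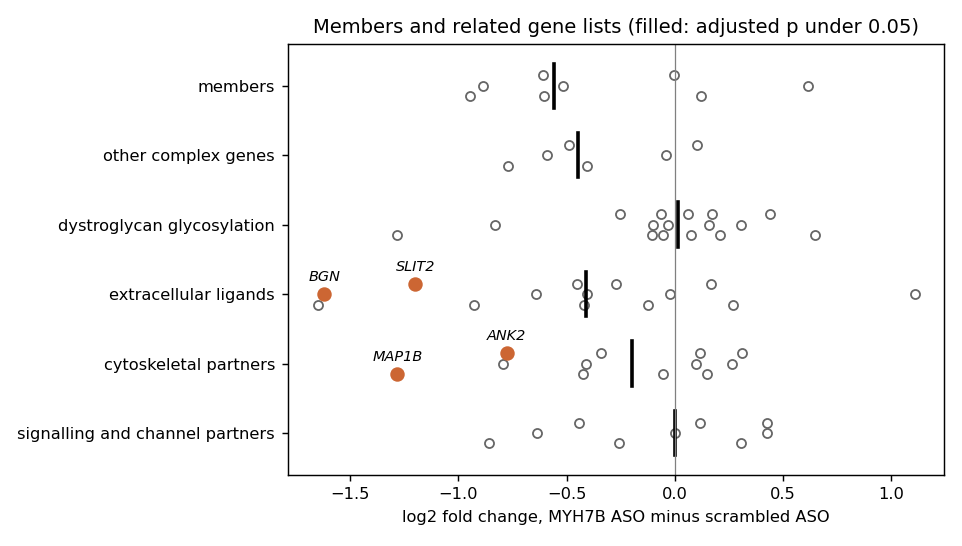
Log2 fold change over 6 libraries (horizontal axis) of the tested genes in the members and in 5 related lists (rows), with a black bar for the median of each row. Filled orange points are the 4 genes with a limma adjusted p under 0.05, BGN, SLIT2, ANK2 and MAP1B, all lower, and none of them is a member.

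Inside the cell, all 12 cytoskeletal partners were tested, and ANK2 and MAP1B were called lower with none called higher (median -0.20), beside 1.66% of all tested genes called. ANK2 encodes ankyrin-B, which helps place dystrophin and dystroglycan at the membrane. It had 30.1, 33.6 and 28.9 TPM in the scrambled libraries and 17.2, 17.5 and 18.0 TPM in replicates 2 to 4, and fell by 0.78 (limma adjusted p = 0.037). Replicate 1, at 27.98 TPM, lay just below the scrambled range, and the adjusted p over 7 libraries was 0.233. With any 1 library left out ANK2 was not called (adjusted p = 0.0707 to 0.136). ANK2 spans 565.6 kb, and its value lay within the quartiles of the class over 500 kb (median -0.70). In that class 29 of 193 genes were called, all of them lower. The values of SLIT2, BGN and MAP1B lay below the quartiles of their own span classes. MAP1B, a microtubule-associated protein reported to bind syntrophin, had 18.8, 16.1 and 17.2 TPM against 6.91, 6.24 and 6.47 TPM, with 12.4 TPM in replicate 1. It fell by 1.28 (limma adjusted p = 0.00891, and 0.0807 over 7 libraries), and only without MYH7B ASO replicate 4 was it not called (adjusted p = 0.0544) among the fits with 1 library left out. The actins and keratins that tie the complex to filaments were abundant and none was called. ACTG1 had 1128 ± 141 against 1251 ± 145 TPM, ACTB 557 ± 199 against 523 ± 117 TPM, KRT8 915 ± 48.1 against 1103 ± 114 TPM and KRT19 452 ± 69.9 against 558 ± 21.4 TPM (SD, n = 3 each). In replicate 1 they were at 2445, 1037, 1534 and 583 TPM in the same order.

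Of 13 signalling and channel partners 9 were tested and none was called, with 5 values higher and 4 lower and a median of 0.00. ATP2B4, a plasma membrane calcium pump that syntrophin binds, had 132 ± 10.9 against 97.1 ± 8.31 TPM (log2 fold change -0.44, limma adjusted p = 0.161). CTNNAL1, alpha-catulin, a partner of dystrobrevin, had 43.4 ± 2.37 against 58.8 ± 7.07 TPM (0.43, adjusted p = 0.206) but 32.5 TPM in replicate 1. GRB2, an adaptor that binds dystroglycan, had 34.0 ± 3.14 against 42.3 ± 5.11 TPM, and PLEKHA1, a syntrophin ligand, 35.0 ± 5.50 against 28.9 ± 2.89 TPM (SD, n = 3 each). In replicate 1 GRB2 was at 88.4 TPM, PLEKHA1 at 21.9 TPM and ATP2B4 at 65.2 TPM. NOS1, the neuronal nitric oxide synthase that the complex holds in skeletal muscle, was under the filter with KCNJ2, AQP4 and ADRA1D.

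How the members vary together was described by correlations with DMD in log2(TPM + 1) over the 6 libraries, which share the group difference. They were 0.86 for SGCD, 0.73 for DTNA, 0.67 for UTRN, 0.54 for SNTB1, 0.43 for SGCB, -0.13 for DAG1 and -0.69 for SGCA. The 3 tested genes most like DMD in this measure were CD99L2 (0.996), PTPRG (0.994) and TNXB (0.992), and 78 genes were over 0.95. Their means were 23.7 and 16.7 TPM for CD99L2, 4.76 and 2.13 TPM for PTPRG and 23.3 and 11.6 TPM for TNXB in the scrambled libraries and MYH7B ASO replicates 2 to 4, and none was called (limma adjusted p = 0.23, 0.196 and 0.152).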

How the data were processed

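Poly-A RNA of 3 scrambled ASO and 4 MYH7B ASO libraries was compared. The deposited TPM values were made by the authors, and each column sums to 1000000, so depth is unknown. GRCh38.p13 and DESeq2 are listed in the submitters' processing notes with no role, and the quantifier and annotation release are not given in the sources used here. The authors' deposited comparison table holds log2 fold changes, a signal (mean normalized count), a test score and p-values, and its name calls the fold changes shrunken. The libraries in it are not stated.

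Main test: limma 3.58.1 (R 4.3.3; lmFit and eBayes with trend) on log2(TPM + 1), without MYH7B ASO replicate 1, over the 15988 genes averaging 1 TPM or more, Benjamini-Hochberg over all. Fold changes on this scale understate the change of low genes. The script was tested on simulated data. Replicate 1 was used only after sorting by GENCODE 29 identifiers, whose count its filled positions equal, and whether it was quantified against another annotation than the rest was not tested. Spans and positions are those of GENCODE 29 on GRCh38. Tables and plots used Python 3.11.15, pandas 2.3.3, scipy 1.17.1 and matplotlib 3.10.9.

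Alternatives were all 7 libraries, pseudocounts of 0.1 and 5, no filter or 5 TPM, median-ratio rescaling, removal of mitochondrial genes, no trend, robust moderation, sample weights, replicate blocks and leaving out each library. The text names the 8 members, called genes of the related lists with up to 4 more of each by level, MYH7B and the 3 genes most correlated with DMD. A few results that this rule would name are not reported here. The members and lists were chosen with earlier results of these data known.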

Additional observations from a re-analysis of the deposited data

Results flagged for a closer look

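Among 67 per-gene measures examined in the 4 MYH7B ASO libraries, 5 had replicate 1 far from the other 3 libraries. Chance sets some library of 4 this far apart in about 1 in 20 measures, whichever library it is. None of the 8 members was among them. ANK2 was at 27.98 TPM in replicate 1 and at 17.2 to 18.0 TPM in the others, and MAP1B at 12.4 TPM against 6.24 to 6.91 TPM. GMPPB, which makes the sugar donor GDP-mannose, was at 23.8 TPM against 5.89 to 8.51 TPM. LAMC1 was at 155 TPM against 72.3 to 83.7 TPM, and MARK2, a kinase of microtubule-associated proteins, at 17.3 TPM against 11.98 to 12.4 TPM. Replicate 1 was the highest of the 4 libraries in all 5 measures. The cell type markers were not among the 67 measures, and replicate 1 stood apart in some of them in both directions. LUM was at 43.8 TPM in replicate 1 and at 4.80 to 7.10 TPM in the others, and ACTA1 at 3.50 TPM against 9.87 to 10.7 TPM.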

How the results depend on the processing

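None of the 8 members was called under any of the 19 alternatives, or the 18 that could be fitted for SGCD and SNTB1, whose means were under 5 TPM. DMD, UTRN, SGCD, SNTB1 and DTNA stayed lower and SGCA higher in all of them. The replicate blocks among the alternatives called 0 genes of the whole table, so they could not call a member. DAG1 turned to -0.012 with the block by description number. SGCB, at -0.00, turned to 0.062 with median-ratio rescaling, 0.022 without mitochondrial genes and 0.026 with sample weights, and ranged from -0.14 to 0.10 when 1 library was left out. The difference in the UTRN to DMD log2 ratio, -0.01, became 0.11 over 7 libraries and 0.044 at a pseudocount of 5, and ranged from -0.32 to 0.19 with 1 library left out.

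The count of called genes, 265, was 170 over 7 libraries, 40 without a filter and 150 without the trend, and from 53 (without MYH7B ASO replicate 4) to 149 with 1 library left out. The 4 called genes of the related lists became 1, 1 and 2 under the same settings and 0 to 2 with 1 library left out. MYH7B kept its direction, at -2.30 over 7 libraries (adjusted p = 0.0525) and -1.85 without a filter (0.0779), and its values with 1 library left out were -2.04 to -1.66, the adjusted p reaching 0.0618 without MYH7B ASO replicate 4. The median of genes over 500 kb, -0.70, was -0.72 over 7 libraries, -0.65 with median-ratio rescaling and -0.72 without mitochondrial genes. The causes were not tested.

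Libraries with the same number in the titles correlated in their deviations by 0.076 and 0.11, and the other 7 pairs by -0.073 to 0.041. No label says that a number marks a shared culture. With a replicate block by title number, by description number, and by title number over 7 libraries, 0 genes and 0 of the related lists were called, and MYH7B was -1.92, -2.17 and -2.41 (adjusted p = 0.331, 0.72 and 0.161). The UTRN to DMD difference was 0.24, 0.047 and 0.19 in these block fits. In the same fits 3, 1 and 1 members had an unadjusted limma p under 0.05, beside 10.7, 6.86 and 11.2% of all tested genes.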
